A study of Mus musculus with 12 samples.

Results

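miR-192-5p, miR-194-5p and miR-204-5p, 3 mature microRNAs known from kidney epithelium, were followed in germ and somatic cells of the mouse embryonic gonad. They were chosen by name, as a gauge of mesonephric tissue left on the gonad, and all 3 were found among the 616 microRNAs listed. Small RNA was sequenced from primordial germ cells (PGC), the precursors of eggs and sperm, and from gonadal somatic cells (SC) of CD1 mouse embryos. Embryos of both sexes were collected at day 11.5 of development (E11.5), at E12.5 or at E13.5, and each of the 12 combinations of fraction, sex and day is a single library. No genetic change or treatment was involved. Each library came from a pool of about 80 gonads, freed of the mesonephros and parted on a magnetic column with anti-CD15 beads. The protocols in the labels give an enrichment of 93 to 96% for PGC and a purity over 90% for SC, both judged by a stain.

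The mesonephros is a transient embryonic kidney that lies against the early gonad and is dissected away from it. miR-192 and miR-194 are processed from shared primary transcripts and are known as abundant microRNAs of kidney, liver and gut epithelium, where hepatocyte nuclear factors drive their genes. miR-204 lies within the ion channel gene Trpm3 and is known from kidney, from the pigment epithelium of the eye and from the choroid plexus. None of the 3 is specific to kidney. Like other microRNAs they repress messenger RNAs that pair with the seed, bases 2 to 8 of the mature strand.

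The mature sequences are shown with those of the other family members listed in the data that carry the same seed, since reads of such near-copies could be confused in counting. Sequences are from RefSeq (build GRCm38.p6), 5′ to 3′, with the seed in capitals.
miR-192-5p: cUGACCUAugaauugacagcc
miR-215-5p: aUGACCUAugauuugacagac
miR-194-5p: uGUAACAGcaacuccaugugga
miR-204-5p: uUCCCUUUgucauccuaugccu
miR-211-5p: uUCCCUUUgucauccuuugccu

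miR-192-5p and miR-215-5p differ at 3 positions counted from the 5′ end (C1A, A12U and C20A), and miR-204-5p and miR-211-5p at 1 (A17U). In the same build the hairpin Mir192 lies on chromosome 19 (6264844 to 6264932, plus strand), 115 bases after Mir194-2 (6264643 to 6264728). A second copy, Mir194-1, lies on chromosome 1 (185313319 to 185313385), 195 bases before Mir215 (185313581 to 185313692). By the GENCODE vM39 annotation of the GRCm39 build, Mir194-2 lies in an exon of the long noncoding RNA gene Gm59786 and Mir192 overlaps no other gene. Mir194-1 and Mir215 lie within the long noncoding RNA gene 2010103J01Rik, opposite to an exon of Iars2. Both Mir194 hairpins give an identical miR-194-5p, so its reads cannot be assigned to a chromosome. Mir204 lies on chromosome 19 (22750605 to 22750672, plus strand) in an intron of Trpm3 on the same strand. How mismatches were treated in counting is not stated, so the split between miR-204-5p and miR-211-5p rests on the authors' counting. Few reads were listed for the near-copies. miR-215-5p was listed with 6 reads in PGC female E11.5, with 5 reads in SC female E11.5 and at 0 in the other libraries. miR-211-5p was listed with 6 reads in PGC female E13.5 and at 0 elsewhere.

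The opposite arm miR-194-2-3p, which is specific to the chromosome 19 hairpin, was listed with 16 and 9 reads in PGC female and male E11.5. In SC it had 9 and 7 reads at E11.5 and 5 and 7 at E12.5 (female and male). It was at 0 in both PGC libraries of E12.5 and in all 4 libraries of E13.5. Where it was seen, miR-194-5p was 34.6 to 83.8 times as abundant. None of the 3 partners reached the mean needed for a test. miR-192-3p, miR-194-1-3p, miR-204-3p, miR-215-3p and miR-211-3p were not among the 616 microRNAs listed and could not be analysed.

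Precision was set by depth. The microRNA reads of a library numbered 166804 to 1768825, and both E12.5 PGC libraries were the shallowest. Levels are given as reads per 1000000 microRNA reads (RPM), with exact 95% Clopper-Pearson intervals in the plot of levels. A value of 0 stands for fewer than 5 reads, or under 2.83 to 29.98 RPM. Intervals and floors cover counting error only. The fractions were checked against marker microRNAs. The 8 germ line microRNAs of the miR-290 cluster summed to 66992 to 136605 RPM in 5 PGC libraries and to 2141 RPM in PGC female E11.5. In SC they summed to 221 to 569 RPM at E11.5 and E12.5. At E13.5 the SC sums were 3305 (female) and 5787 RPM (male), both above that of PGC female E11.5. The library labelled PGC female E11.5 therefore stood apart from the other PGC libraries, and the comparisons that draw on it are also given without it. PGC male E11.5 stays in those comparisons. Its 5 mesenchymal microRNAs summed to 57896 RPM, against 8143 to 26533 RPM in PGC from E12.5 on and 68816 to 114203 RPM in SC. Its endothelial microRNAs summed to 27782 RPM, against 4669 to 11230 RPM in the later PGC libraries. The gonadal somatic miR-202 arms summed to 154 and 231 RPM in the E11.5 SC libraries and to 3006 to 19053 RPM in SC from E12.5 on, against 155 to 3054 RPM in PGC. In bulk RNA, fewer cells of a type and less RNA per cell cannot be told apart.

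All 3 microRNAs were of middle abundance and were detected in 12 of 12 libraries. By mean RPM they ranked 170 (miR-192-5p), 163 (miR-194-5p) and 177 (miR-204-5p) of 616. Together they took 0.126 to 0.355% of the microRNA reads in PGC and 0.0627 to 0.100% in SC. The lowest of the PGC shares was that of female E11.5. By deposited values, given further on, the fractions overlapped for each of the 3 microRNAs.

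miR-192-5p stood at 599 RPM (female) and 730 RPM (male) in PGC at E11.5, at 210 and 597 RPM at E12.5, and at 1339 and 936 RPM at E13.5. In SC it stood at 450 and 501 RPM at E11.5, at 222 and 212 RPM at E12.5, and at 328 and 270 RPM at E13.5. In RPM the E13.5 PGC libraries were the highest, PGC female E12.5 was the lowest, and the fractions overlapped through it. Of the 11 neighbouring pairs in the order of libraries, 7 had overlapping counting intervals. Among them, the 3 lowest libraries, SC female E12.5, SC male E12.5 and PGC female E12.5, could not be ordered.

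miR-194-5p stood at 573 and 755 RPM (female and male) in PGC at E11.5, at 372 and 722 RPM at E12.5, and at 1253 and 956 RPM at E13.5. In SC the values were 413 and 396 RPM at E11.5, 281 and 348 RPM at E12.5, and 506 and 360 RPM at E13.5. Again the E13.5 PGC libraries were the highest in RPM, and PGC female E12.5 lay within the range of SC. As for miR-192-5p, 7 of 11 neighbouring pairs overlapped. The ratio of miR-194-5p to miR-192-5p ran from 0.791 in SC male E11.5 to 1.77 in PGC female E12.5, so the levels of the clustered pair stayed close in every library.

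In RPM miR-204-5p followed another course. In PGC it stood at 90.1 and 226 RPM (female and male) at E11.5, at 2224 and 1265 RPM at E12.5, and at 960 and 706 RPM at E13.5. In SC it stood at 58.2 and 106 RPM at E11.5, at 125 and 109 RPM at E12.5, and at 56.7 and 106 RPM at E13.5. The E12.5 PGC libraries were the highest, and all PGC libraries but female E11.5 lay above all of SC. Both statements hold for RPM and not for the deposited values, given further on, where the E13.5 PGC libraries were the highest. Of its 11 neighbouring pairs 5 overlapped, among them the male SC libraries and SC female E12.5. The ratio of miR-204-5p to miR-192-5p ran from 0.129 in SC female E11.5 to 10.6 in PGC female E12.5, a wider spread than that between miR-192-5p and miR-194-5p.

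**Figure D1:**
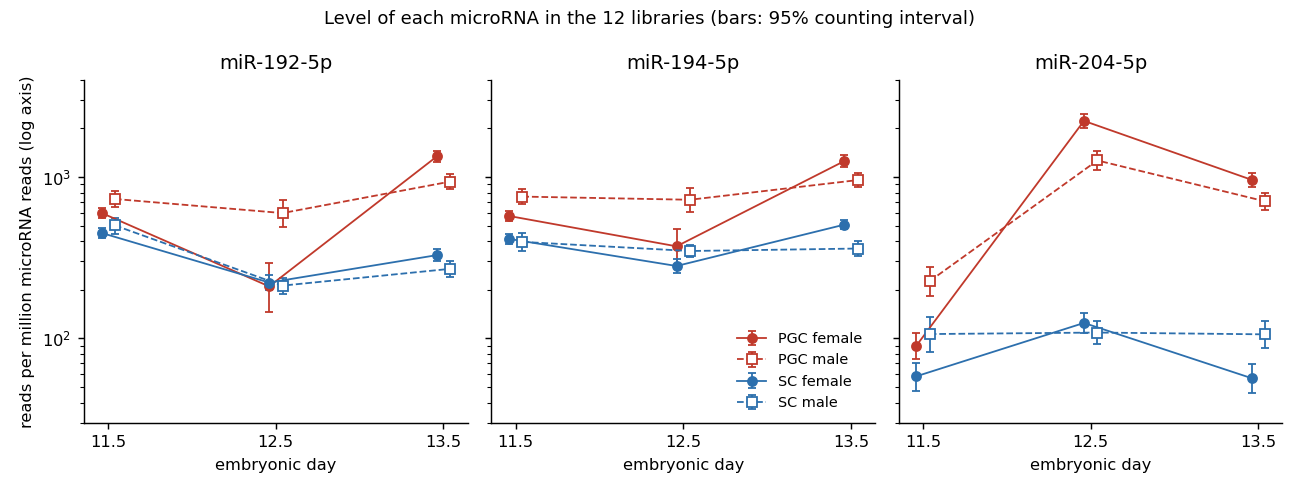
RPM (log axis) of each microRNA by embryonic day, with 1 point per library, colour for the cell fraction, filled symbols and solid lines for females, open symbols and dashed lines for males, and bars for the 95% counting interval. miR-192-5p and miR-194-5p are highest in the E13.5 PGC libraries (936 to 1339 RPM), while miR-204-5p in RPM is highest in the E12.5 PGC libraries, though not by deposited values, and stays at 56.7 to 125 RPM in SC.

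The cell fractions were compared over the 6 pairs of equal sex and day, with limma on log2(RPM + 1) and Benjamini-Hochberg adjustment over all 513 microRNAs tested. At an adjusted p under 0.05, 39.0% of these were called in either direction, 13.5% as higher in PGC and 25.5% as lower. In RPM all 3 microRNAs were called as higher in PGC. miR-204-5p averaged 912 ± 779 RPM in PGC and 93.4 ± 28.7 RPM in SC (SD, n = 6 each). The fitted difference was 6.47-fold (log2 2.69 ± 0.54, SE, limma adjusted p = 0.00542), with PGC higher in 6 of 6 pairs. miR-192-5p averaged 735 ± 379 RPM in PGC and 330 ± 121 RPM in SC, 2.04-fold (log2 1.03 ± 0.37, SE, limma adjusted p = 0.0475; higher in 5 of 6 pairs). miR-194-5p averaged 772 ± 306 RPM in PGC and 384 ± 75.4 RPM in SC, 1.90-fold (log2 0.93 ± 0.30, SE, limma adjusted p = 0.0335; higher in 6 of 6 pairs). The p-values measure the spread between these libraries and not between repeated isolations.

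The direction for miR-192-5p and miR-194-5p and the day at which miR-204-5p was highest in PGC depended on the scale. On the deposited scale the sums of the libraries differ 20.4-fold, a wider spread than the 10.6-fold of the reads. The median difference of all 513 microRNAs on the deposited scale was -2.57, against -0.74 in RPM. On it miR-192-5p read 537, 22.2 and 521 in PGC females at the 3 days and 270, 88.0 and 338 in males, against 971, 337 and 482 in SC females and 348, 293 and 456 in SC males. miR-194-5p read 515, 39.3 and 488 in PGC females and 279, 106 and 346 in males, against 892, 426 and 744 in SC females and 275, 481 and 609 in SC males. miR-204-5p read 80.9, 235 and 374 in PGC females and 83.7, 186 and 255 in males, against 126, 189 and 83.4 in SC females and 73.9, 150 and 179 in SC males. Both E12.5 PGC libraries, the shallowest, were thus the lowest of all for miR-192-5p and miR-194-5p on this scale, and SC female E11.5 was the highest. The highest values of miR-204-5p were in the E13.5 PGC libraries, and PGC male E12.5 (186) lay below SC female E12.5 (189). There miR-192-5p (log2 -1.19, limma adjusted p = 0.0973) and miR-194-5p (-1.29, 0.0667) were lower in PGC without passing, and miR-204-5p was higher without passing (0.47, 0.474). The deposited scale called 77.2% of all microRNAs as lower and 7.02% as higher. Relative to the median of all microRNAs on each scale, miR-204-5p stood 3.44 (RPM) and 3.05 (deposited) higher, miR-192-5p 1.78 and 1.39, and miR-194-5p 1.67 and 1.28. By RPM, 45 of 513 microRNAs had a larger difference than miR-204-5p, 80 than miR-192-5p and 86 than miR-194-5p, and on the deposited scale 51, 91 and 97 had.

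**Figure D2:**
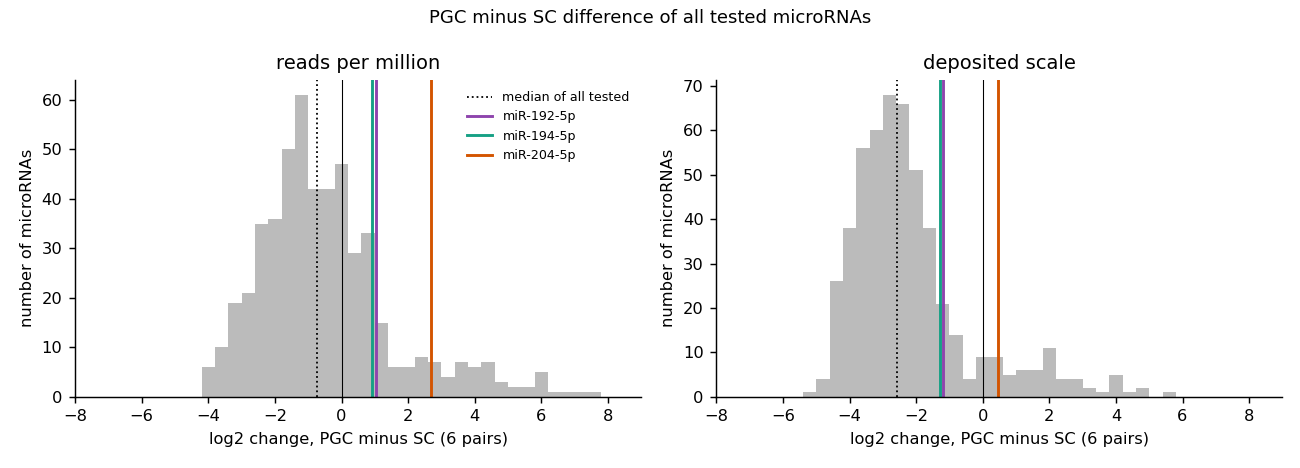
Number of microRNAs by the fitted log2 change between PGC and SC for all 513 tested, in RPM (left) and on the deposited scale (right), with the 3 microRNAs as coloured lines, the median of all as a dotted line and 0 as a thin line. All 3 lie to the right of the median on both scales (median -0.74 and -2.57), and only miR-204-5p lies above 0 on both.

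The calls of the clustered pair were lost in most omissions of a single library, while their differences stayed positive. With 1 library left out, which takes its partner out of the estimate, miR-204-5p passed in 12 of 12 cases (log2 2.40 to 3.11, adjusted p 0.0039 to 0.0291). The call for miR-192-5p held in 4 of 12 (0.83 to 1.25, adjusted p 0.0416 to 0.163) and was lost without either library of the pairs male E11.5, male E12.5, female E13.5 and male E13.5. For miR-194-5p it held in 2 of 12 (0.83 to 1.03, adjusted p 0.0192 to 0.117), those without a female E11.5 library of 1 or the other fraction. Without PGC female E11.5 the 3 differences were 1.15 (miR-192-5p), 1.02 (miR-194-5p) and 3.11 (miR-204-5p), all past the threshold. Without both E12.5 PGC libraries none passed (1.19, 1.03 and 2.12; adjusted p = 0.169, 0.169 and 0.122).

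The difference between the fractions was then taken day by day, from a single fit to the 12 libraries, which leaves 4 residual degrees of freedom. Each fraction and day holds 1 female and 1 male library, so the sexes stand in for replicates. The p-values do not measure the spread between repeated isolations, and a sex difference limited to 1 day counts as error. At E11.5, when PGC have just settled in the gonad, none of the 3 was called. The log2 differences between PGC and SC were 0.48 ± 0.49 (miR-192-5p), 0.70 ± 0.41 (miR-194-5p) and 0.85 ± 0.60 (miR-204-5p; SE, limma adjusted p = 0.814, 0.599 and 0.707). By deposited values all 3 directions turned, to -0.61, -0.39 and -0.23. In that comparison limma called 0% of 513, 44 had an unadjusted p under 0.05, and 19 (3.70%) were called on the deposited scale and 0 by voom. Without PGC female E11.5, 36 were called, and the differences of the 3 microRNAs were 0.37, 0.76 and 1.83 (adjusted p = 0.953, 0.816 and 0.176), while without PGC male E11.5 that of miR-204-5p was -0.12.

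At E12.5 miR-204-5p was 14.3-fold higher in PGC (log2 3.84 ± 0.60, SE, limma adjusted p = 0.00307; 2 of 2 sexes), in a comparison where 48.1% of microRNAs were called, 13.6% as higher. The call held without each library in turn (3.21 to 4.46, adjusted p 0.00212 to 0.0415). On the deposited scale its difference was 0.31 (adjusted p = 0.743), and over 17 alternatives the adjusted p ran from 0.00159 to that value. The clustered pair was not called in RPM (miR-192-5p 0.70 ± 0.49, adjusted p = 0.263; miR-194-5p 0.73 ± 0.41, adjusted p = 0.176, SE, limma). In single pairs, which carry no test, miR-192-5p was at 0.946 times the SC level in females and at 2.81 times in males, and miR-194-5p at 1.32 and 2.08 times. By deposited values miR-192-5p (log2 -2.79, limma adjusted p = 0.00194) and miR-194-5p (-2.79, 0.00172) were called as lower in PGC, as were 78.4% of all microRNAs.

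At E13.5, when the sexes have parted in morphology, all 3 were called as higher in PGC by RPM, as were 11.3% of the microRNAs tested (35.5% were called in either direction). miR-204-5p was 10.5-fold higher (log2 3.39 ± 0.60, SE, limma adjusted p = 0.00982), miR-192-5p 3.76-fold (1.91 ± 0.49, adjusted p = 0.0274) and miR-194-5p 2.56-fold (1.36 ± 0.41, adjusted p = 0.0417), each in 2 of 2 sexes. By deposited values the log2 differences were 1.33, -0.16 and -0.71 (adjusted p = 0.153, 0.872 and 0.427). The call for miR-204-5p was lost without PGC female E13.5, PGC male E13.5 or SC female E13.5 (adjusted p 0.00513 to 0.0594 over the 12 omissions, log2 3.04 to 3.74). That for miR-192-5p was lost without PGC female E13.5 or any 1 of the 6 SC libraries (0.0157 to 0.188, log2 1.20 to 2.61). That for miR-194-5p held only without 1 of the E12.5 PGC libraries (0.0406 to 0.285, log2 0.82 to 1.89).

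**Figure D3:**
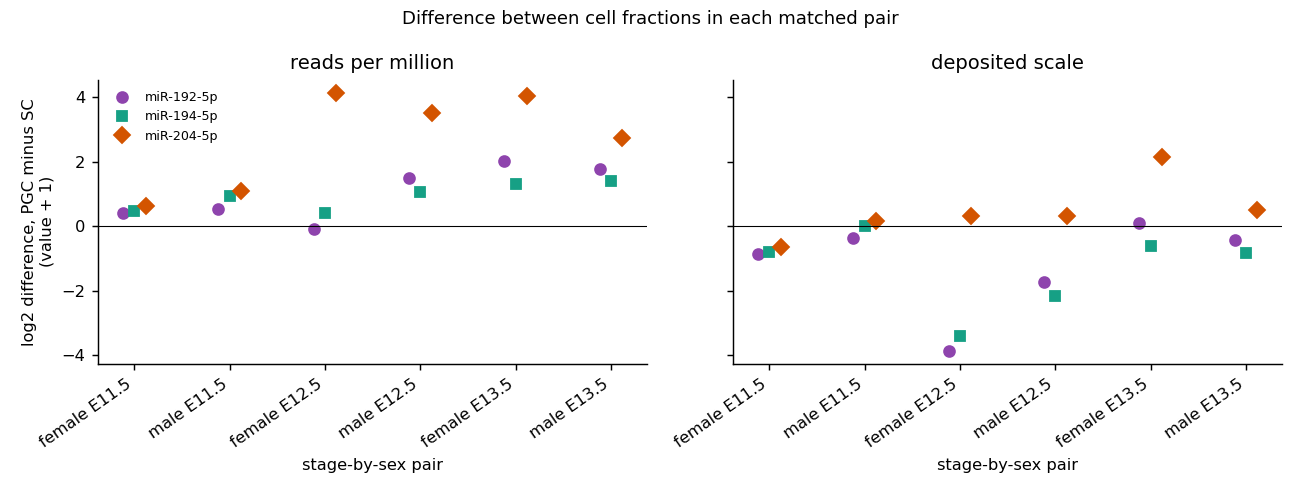
Difference between PGC and SC as log2 of (value + 1) in each of the 6 pairs of equal sex and day, in RPM (left) and on the deposited scale (right), with 1 symbol per microRNA. In RPM 17 of the 18 points lie above 0, and miR-204-5p exceeds 2.7 in the 4 pairs of E12.5 and E13.5, while on the deposited scale the E12.5 points of miR-192-5p and miR-194-5p lie lowest.

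Over time, miR-204-5p rose in PGC by RPM. From E11.5 to E12.5 it was 24.7 times as high in females and 5.59 times in males, and from E12.5 to E13.5 it went to 0.432 and 0.558 of that level. The female rise starts from PGC female E11.5 (90.1 RPM), the library that stood apart from the other PGC libraries. Without it only the male ratio is left for the first step. The decline after E12.5 was seen in RPM only, as the deposited values went from 235 to 374 in females and from 186 to 255 in males, and neither step was tested. At E13.5 it stood 5.73-fold above E11.5 (log2 2.52 ± 0.60, SE, limma adjusted p = 0.0185; 2 of 2 sexes), in a comparison where 28.8% of microRNAs were called, 7.41% as higher. By deposited values it was 1.90 (adjusted p = 0.0757). The call was lost without PGC female E11.5 (1.54, adjusted p = 0.127), PGC female E13.5 or PGC male E13.5 (adjusted p 0.012 to 0.135 over the 12 omissions). In SC its change was -0.02 ± 0.60 (adjusted p = 0.987), at levels of 0.974 and 0.996 of E11.5 in females and males. The difference between both changes was 2.54 ± 0.85 (SE, limma adjusted p = 0.144) and did not pass, and without PGC female E11.5 it was 1.57 (0.305). For that difference limma called 0% of 513, 108 had an unadjusted p under 0.05, and 4 (0.780%) were called on the deposited scale and 0 by voom.

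miR-192-5p and miR-194-5p were not called over time in either fraction. From E11.5 to E13.5 miR-192-5p changed in PGC by log2 0.76 ± 0.49 (SE, limma adjusted p = 0.302), with levels 2.24 times as high in females and 1.28 times in males. This change ran from 0.053 without PGC female E13.5 to 1.46 without PGC male E13.5. In SC it changed by -0.67 ± 0.49 (adjusted p = 0.438), to 0.728 and 0.539 of the E11.5 level. In that SC comparison 7.99% of microRNAs were called. The difference between the 2 fractions was 1.43 ± 0.70 (adjusted p = 0.294). miR-194-5p changed by 0.73 ± 0.41 in PGC (adjusted p = 0.245) and by 0.08 ± 0.41 in SC (adjusted p = 0.921), with a difference of 0.66 ± 0.58 (adjusted p = 0.606). Its change in PGC ran from 0.20 to 1.27 without the same libraries. Without PGC female E11.5 the changes in PGC were 0.86 (miR-192-5p) and 0.68 (miR-194-5p), and their differences from SC 1.54 and 0.60 (adjusted p = 0.547, 0.574, 0.416 and 0.714). In RPM both read lower at E12.5 than at E11.5 in each of the 4 series of sex and fraction, which was not tested. For miR-192-5p the E12.5 level was 0.351 (female) and 0.818 (male) of that at E11.5 in PGC and 0.493 and 0.424 in SC. For miR-194-5p it was 0.648 and 0.956 in PGC and 0.679 and 0.878 in SC. The PGC female ratios start from PGC female E11.5, the library that stood apart. Counting intervals of the 2 days overlapped in PGC males for both and in SC males for miR-194-5p, whose deposited value there went from 275 to 481.

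The sexes were compared within each fraction over the 3 days, and none of the 3 microRNAs was called. In PGC the log2 difference between females and males was -0.42 ± 0.40 (miR-192-5p), -0.32 ± 0.34 (miR-194-5p) and -0.02 ± 0.49 (miR-204-5p; SE, limma adjusted p = 0.626, 0.656 and 1). In SC it was 0.06 ± 0.40, 0.08 ± 0.34 and -0.52 ± 0.49 (adjusted p = 0.999, 0.999 and 0.993). limma called 0% in each, where 83 (PGC) and 22 (SC) had an unadjusted p under 0.05, 2 (0.390%) and 6 (1.17%) were called on the deposited scale and 0 by voom in either. Without PGC female E11.5 the differences in PGC were -0.49 (miR-192-5p), -0.28 (miR-194-5p) and 0.63 (miR-204-5p; limma adjusted p = 0.798, 0.951 and 0.586), so that of miR-204-5p turned. Single days went both ways. PGC females had 0.351 of the male miR-192-5p level at E12.5 and 1.43 times it at E13.5. For miR-204-5p, PGC females had 0.398 of the male level at E11.5 and 1.76 and 1.36 times it afterwards. These ratios of single libraries carry no test.

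Other microRNAs of epithelium and kidney were described beside them. All lists, the marker lists included, were chosen with earlier results of these data known. Their shares of calls beside those of all microRNAs are therefore a description and not an independent test. In the epithelial list, made of the miR-200 family, which maintains epithelial cell contacts, with miR-203-3p and miR-205-5p, 4 of 7 members were called as higher in PGC in RPM and 0 as lower, against 13.5% and 25.5% of all microRNAs. The median log2 difference of the list was 2.33, against -0.74 for all microRNAs, and 0.10 on the deposited scale, where 0 were called as higher and 2 as lower (miR-203-3p and miR-205-5p), against 7.02% and 77.2% of all. The 4 called in RPM were miR-429-3p and the 3 most abundant members. miR-200b-3p averaged 17455 ± 8190 RPM in PGC and 2305 ± 1050 RPM in SC (SD, n = 6), miR-200a-3p 10106 ± 8726 and 1855 ± 1418 RPM, and miR-200c-3p 3980 ± 1904 and 660 ± 613 RPM. Their fitted differences were 2.91, 2.33 and 2.95 (limma adjusted p = 0.000629, 0.0168 and 0.00379), and on the deposited scale 0.68, 0.10 and 0.72, none of them called. At E13.5 the call for the list did not depend on the scale, with 4 of 7 as higher and 0 as lower on both, against 11.3% (RPM) and 5.46% (deposited) of all microRNAs as higher. There miR-200b-3p differed by 3.84 in RPM (limma adjusted p = 0.00428) and by 1.76 on the deposited scale (0.0466), and miR-200a-3p by 4.33 (0.00898) and 2.26 (0.0135). The summed list stood at 12660 to 48673 RPM in PGC and at 2087 to 11850 RPM in SC, with miR-141-3p at 0 in 4 libraries.

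The list of microRNAs abundant in kidney, which holds miR-10a-5p and miR-10b-5p from the Hox clusters and the miR-30 family, overlapped between the fractions. It stood at 170924 to 243286 RPM in PGC and at 152198 to 242207 RPM in SC. Over the 6 pairs 2 of 9 members were called as higher in PGC and 0 as lower (13.5% and 25.5% of all microRNAs), with a median log2 difference of 0.18. These were miR-30c-5p (0.76, limma adjusted p = 0.0324) and miR-30a-3p (1.25, 0.0126). On the deposited scale 0 were called as higher and 8 as lower, with a median of -2.05, where 77.2% of all microRNAs were called as lower. Its most abundant members, miR-10b-5p (-0.53, limma adjusted p = 0.14), miR-10a-5p (0.78, 0.107) and miR-30d-5p (0.10, 0.782), were not called over the 6 pairs in RPM. By single days, miR-10b-5p was called as lower in PGC in RPM from E12.5 on. Its log2 difference was -0.78 for E12.5 (limma adjusted p = 0.0325) and -0.85 for E13.5 (0.0332). On each of these days 2 of 9 members were called as higher and 1 as lower. Of all microRNAs, 13.6% and 11.3% were called as higher, 34.5% and 24.2% as lower. On the deposited scale 0 members were called as higher, and 9 (E12.5) and 5 (E13.5) as lower.

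Since miR-192 and miR-194 are also abundant in liver, the liver microRNA miR-122-5p was read in the same libraries. With its opposite arm it stood at 4287 and 2015 RPM (female and male) in PGC at E11.5 and at 653 and 3032 RPM in SC. At E12.5 it was at 0 and 43.4 RPM in PGC and at 65.7 and 15.2 RPM in SC. At E13.5 it was at 0 in both PGC libraries, and at 842 and 0 RPM in SC. The E13.5 PGC libraries, where miR-192-5p and miR-194-5p were highest in RPM, held fewer than 5 reads of either liver arm. SC male E13.5, with 270 RPM of miR-192-5p, held fewer than 5 as well. A liver source of miR-192-5p and miR-194-5p was not tested. Markers of other tissues also moved with the fractions and days, though not all of them. Over the 6 pairs 1 of 2 endothelial, 1 of 3 muscle, 0 of 5 erythroid and 0 of 1 liver microRNAs tested were called as lower in RPM. From E11.5 to E13.5 in PGC 2 of 2, 3 of 3, 2 of 5 and 1 of 1 were, in the same order. The shares of all microRNAs called as lower were 25.5% and 21.4%. Over the 6 pairs 5 of 5 mesenchymal microRNAs were called as lower in PGC (median -1.90; 25.5% of all) and 8 of 8 germ line microRNAs as higher (median 6.12; 13.5% of all). From E11.5 to E13.5 in PGC, where miR-204-5p rose, 5 of 5 mesenchymal microRNAs fell (median -2.57), where 21.4% of all microRNAs were called as lower. There 2 of 2 gonadal somatic microRNAs rose (median 3.93), where 7.41% of all were called as higher. In RPM 0 of 8 germ line microRNAs were called (median 3.04), and on the deposited scale 8 of 8 were called as higher (median 2.42), where 7.80% of all were. Without PGC female E11.5, 5 of 5 mesenchymal (median -2.90; 13.3% of all), 1 of 2 gonadal somatic (4.53; 4.87% of all) and 0 of 8 germ line microRNAs (0.57) were called over time in RPM. The median log2 changes over time without it were -2.23 (endothelial), -5.76 (muscle), -3.68 (erythroid) and -9.61 (liver). Over the remaining 5 pairs 5 of 5 mesenchymal microRNAs were called as lower in PGC, where 31.2% of all microRNAs were. So were 2 of 2 endothelial, 2 of 3 muscle, 2 of 5 erythroid and 0 of 1 liver microRNAs. As higher, 8 of 8 germ line, 4 of 7 epithelial and 2 of 9 kidney microRNAs were called, where 14.8% of all were. In PGC and SC the endothelial list (2 of 2 listed) summed to 4669 to 51442 and 16088 to 37105 RPM, the mesenchymal list (5 of 5) to 8143 to 83830 and 68816 to 114203 RPM. The erythroid list (5 of 5) summed to 65.2 to 1951 and 444 to 2454 RPM and the muscle list (4 of 4) to 0 to 1229 and 131 to 1503 RPM, with all 4 muscle microRNAs at 0 in both E12.5 PGC libraries and in PGC male E13.5. Their part in the results was not tested.

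**Figure D4:**
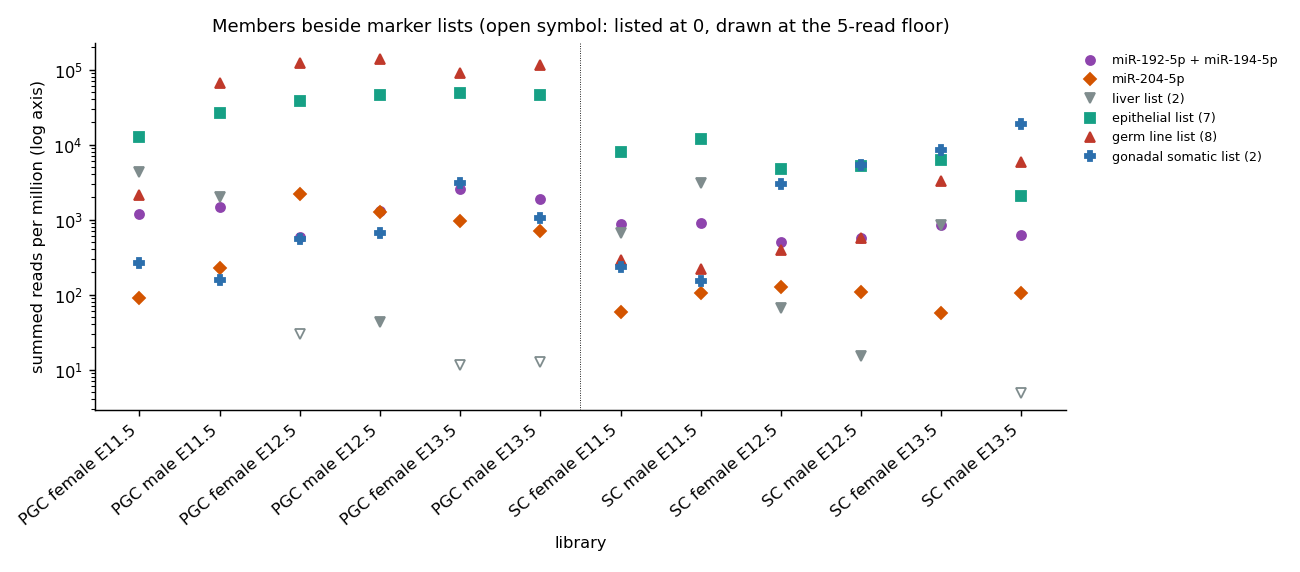
Summed RPM (log axis) in the 12 libraries for miR-192-5p with miR-194-5p, for miR-204-5p and for 4 marker lists, with open symbols for sums of 0 drawn at the floor of 5 reads. The liver list is at 0 in PGC female E12.5, in both E13.5 PGC libraries and in SC male E13.5. The germ line list in PGC female E11.5 (2141 RPM) lies below that of the other PGC libraries.

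The microRNAs with the most similar course were ranked by Pearson's r of log2(RPM + 1) over the 12 libraries, among 332 with a mean deposited value of at least 50. The libraries share their fraction and depth, so the r values are a description. The nearest to miR-192-5p was miR-194-5p (r = 0.926; 0.972 within PGC and 0.594 within SC, 6 libraries each), and the nearest to miR-194-5p was miR-192-5p. Next to miR-192-5p came miR-20a-5p (0.888), miR-200a-3p (0.887), miR-96-5p (0.866) and miR-31-5p (0.842). Next to miR-194-5p came miR-200a-3p (0.895), miR-96-5p (0.883), miR-31-5p (0.860) and miR-203-3p (0.857). miR-204-5p was nearest to miR-669c-5p (0.933), miR-1291 (0.911), miR-30c-5p (0.909), miR-30a-3p (0.907) and miR-23b-3p (0.889). Its r was 0.301 with miR-192-5p and 0.488 with miR-194-5p, and within each fraction both were below 0. Thus in RPM miR-192-5p and miR-194-5p shared a course most closely within PGC, and miR-204-5p had another. Within SC the r of miR-192-5p was 0.976 with miR-96-5p, above that with miR-194-5p. From E11.5 to E13.5 in SC females miR-192-5p went to 0.728 of its level and miR-194-5p to 1.22 times its level. In SC males both fell, to 0.539 and 0.910.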

How the data were processed

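Small RNA of 12 libraries was read from 1 table of normalized signal, equal to the single-library files (largest difference 0). Per the submitters' processing notes, the tools were FastQC, Trim Galore, DESeq and Bowtie 1.1.2, and the genome build GRCm38, while for the counting step and its annotation nothing is stated. The deposited signal behaves as the authors' counts scaled by a single size factor in each library (1.08 to 1.58 in PGC, 0.614 to 1.15 in SC). Of the values, 100% were whole multiples (tolerance 1e-06) of 1 read, taken as the lowest non-zero value of a library over 5.

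Because the deposited sums differed 20.4-fold and the reads 10.6-fold, RPM of the column sum was the main scale and the deposited scale an alternative. Fits used limma 3.58.1 in R 4.3.3 (empirical Bayes with trend) on log2(value + 1), over 513 microRNAs whose deposited mean reached 5. The 6 pairs were a block (5 residual degrees of freedom). Days and sexes within fractions came from a fit to the 12 libraries (4 degrees). In all, 9 comparisons were made. Alternatives were the deposited scale, a pseudocount of 10, no filter, no pair block and omitted libraries. After the data were seen, voom on whole reads and RPM without the 10 most abundant microRNAs in the sum were added. Named microRNAs were the 3 members, listed hairpin or seed partners, the 3 most abundant of the kidney and the epithelial list, and the 5 most similar to each member. Members and lists were chosen with earlier results of these data known.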

Additional observations from a re-analysis of the deposited data

How the results depend on the processing

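Values are log2 changes unless they are counts of microRNAs called. On the deposited scale the differences between PGC and SC over the 6 pairs were -1.19 (miR-192-5p), -1.29 (miR-194-5p), 0.47 (miR-204-5p), -1.45 (miR-10a-5p) and -2.13 (miR-30d-5p), with 432 calls. In the same order the 3 members gave -0.61, -0.39 and -0.23 at E11.5 (19 calls), -2.79, -2.79 and 0.31 at E12.5 (432 calls) and -0.16, -0.71 and 1.33 at E13.5 (316 calls). From E11.5 to E13.5 miR-204-5p changed by 1.90 in PGC and 0.34 in SC, and the difference between the fractions was -0.33 for miR-194-5p (4 calls). Between the sexes it gave 0.28 for miR-204-5p in PGC, with 2 calls in PGC and 6 in SC. Without both E12.5 PGC libraries the pairs gave 1.19, 1.03 and 2.12 (adjusted p = 0.169, 0.169 and 0.122; 17 calls, with fewer samples), and the sex difference of miR-192-5p in PGC was 0.12. Without the pair block miR-192-5p (1.03, adjusted p = 0.088) and miR-194-5p (0.93, 0.0561) were not called, with 95 calls. Without a filter miR-192-5p was at 1.03 with an adjusted p of 0.05. A pseudocount of 10 gave 7 calls for the difference of the changes over time and 0.0021 for the sex difference of miR-204-5p in PGC. With voom, chosen after seeing the data, the changes of miR-204-5p were 0.0028 over time in SC and 0.14 between the sexes in PGC. Without the 10 most abundant microRNAs in the sum, also chosen after seeing the data, miR-192-5p gave 0.96 over the pairs and miR-194-5p 1.28 at E13.5, neither past the threshold. That setting gave -0.043 for miR-194-5p over time in SC and 0.10 for miR-204-5p between the sexes in PGC. For the settings named here the cause was not tested. A planned quasi-likelihood count test was not run.

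With 1 library left out at a time, where the lone library of a day is taken to vary like the others, the 6 pairs ran from 0.83 to 1.25 (miR-192-5p), 0.83 to 1.03 (miR-194-5p) and -0.073 to 0.24 (miR-30d-5p), with 85 to 238 calls. At E11.5 miR-204-5p ran from -0.12 to 1.83 (0 to 36 calls), at E12.5 miR-192-5p from -0.11 to 1.51 (108 to 256 calls). At E13.5 the members ran from 1.20 to 2.61, 0.82 to 1.89 and 3.04 to 3.74 (39 to 190 calls). Over time miR-204-5p ran from 1.54 to 3.49 in PGC (93 to 149 calls) and from -0.30 to 0.26 in SC (5 to 51 calls), and miR-194-5p from -0.23 to 0.38 in SC. The difference of these changes gave 0 to 2 calls. Between the sexes the ranges were -0.90 to 0.12 (miR-192-5p in PGC), -0.045 to 0.17 (miR-192-5p in SC), -0.12 to 0.28 (miR-194-5p in SC) and -0.44 to 0.63 (miR-204-5p in PGC). Counts of 35 reads for miR-192-5p in PGC female E12.5 and of 110 for miR-204-5p in PGC female E11.5 limit those values.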
